A study of Mus musculus with 6 samples.

Results

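The genes described here encode proteins that build and anchor the actin core of the hair bundle, the mechanosensitive brush of stereocilia on top of each hair cell. They were Espn, Fscn2, Eps8, Eps8l2, Myo15, Myo6, Triobp, Lmo7, Xirp2 and Grxcr1, and they were chosen by name as proteins of the actin core, the rootlet, the cuticular plate and the bundle myosins. Of these 10 genes, 9 had a probe set that the platform annotation pairs with that gene symbol alone, among 19938 genes measured. No probe set was named for Grxcr1, and it is not described further. Total RNA came from dissected organ of Corti, which holds the hair cells and supporting cells of the cochlea, of mice at postnatal day 15 on a mixed C57BL/6J-129/Sv background. One group was Pjvk-/- (knockout) and the other Pjvk+/+ (wild-type), with 3 arrays each and no treatment named in the labels. The labels do not say which part of Pjvk was altered, nor whether each RNA sample came from 1 animal or a pool. Pjvk encodes pejvakin, a protein whose loss causes deafness, and the genotypes were compared to find transcripts whose level differs without it.

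A stereocilium is a bundle of parallel actin filaments held together by crosslinking proteins such as espin and fascin. Its height is set at the tip, where myosin XVA delivers proteins that cap or regulate the growing filament ends. At its base the bundle narrows into a rootlet that is anchored in the cuticular plate, a dense actin mesh under the apical surface of the hair cell. Loss of many of these proteins causes deafness in mice or humans.

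The knockout and wild-type arrays were alike over all probe sets, with Pearson correlations between 0.9913 and 0.994 for any pair and medians between 6.66 and 6.69 on the log2 scale. Pjvk itself read 4.42, 4.36 and 4.21 in the knockout and 4.75, 5.06 and 4.96 in the wild-type (log2 signal). The genotypes did not overlap, with a lower knockout signal and a difference of -0.59 (SE 0.09) that did not pass (limma adjusted p = 0.105). The probe set is dim, and whether it covers the altered stretch of Pjvk is not stated in the sources used here. The 16 hair cell markers looked at, among them Pou4f3, Otof, Slc26a5 and Tmc1, were all measured and lay between percentiles 31.7 and 95.1 of the genes by signal. Because the samples are bulk tissue, fewer hair cells and less transcript per hair cell cannot be told apart in any result given here.

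No member was called at an adjusted p under 0.05 over all 19938 genes, a threshold that 7 genes passed (0.0351% of those tested), all of them lower in the knockout. Without adjustment, 2 of the 9 measured members met an unadjusted limma p under 0.05, Lmo7 lower and Xirp2 higher. That is 22.2% of 9, against 12.4% of all genes (6.66% lower and 5.74% higher). The knockout and wild-type values did not overlap for 3 members, Lmo7 lower and Xirp2 and Espn higher, that is 33.3% of 9, against 17.8% of all genes (11.3% lower and 6.59% higher). The count was 6 without knockout replicate 3 (24.7% of all genes) and 5 without wild-type replicate 2 (33.4% of all genes). With the Y-linked level described below as a covariate, 0 members met an unadjusted limma p under 0.05. Of all 19938 genes 1087 did so with that covariate, against 2471 in the main analysis. With so few members these shares are a description. The median log2 fold change of the members was -0.013, with 4 higher and 5 lower, and that of all genes was -0.01. The differences within the set ran from -0.48 for Lmo7 to 0.25 for Xirp2, both proteins of the cuticular plate and the base of the bundle. The other 7 members lay between -0.08 and 0.11.

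**Figure D1:**
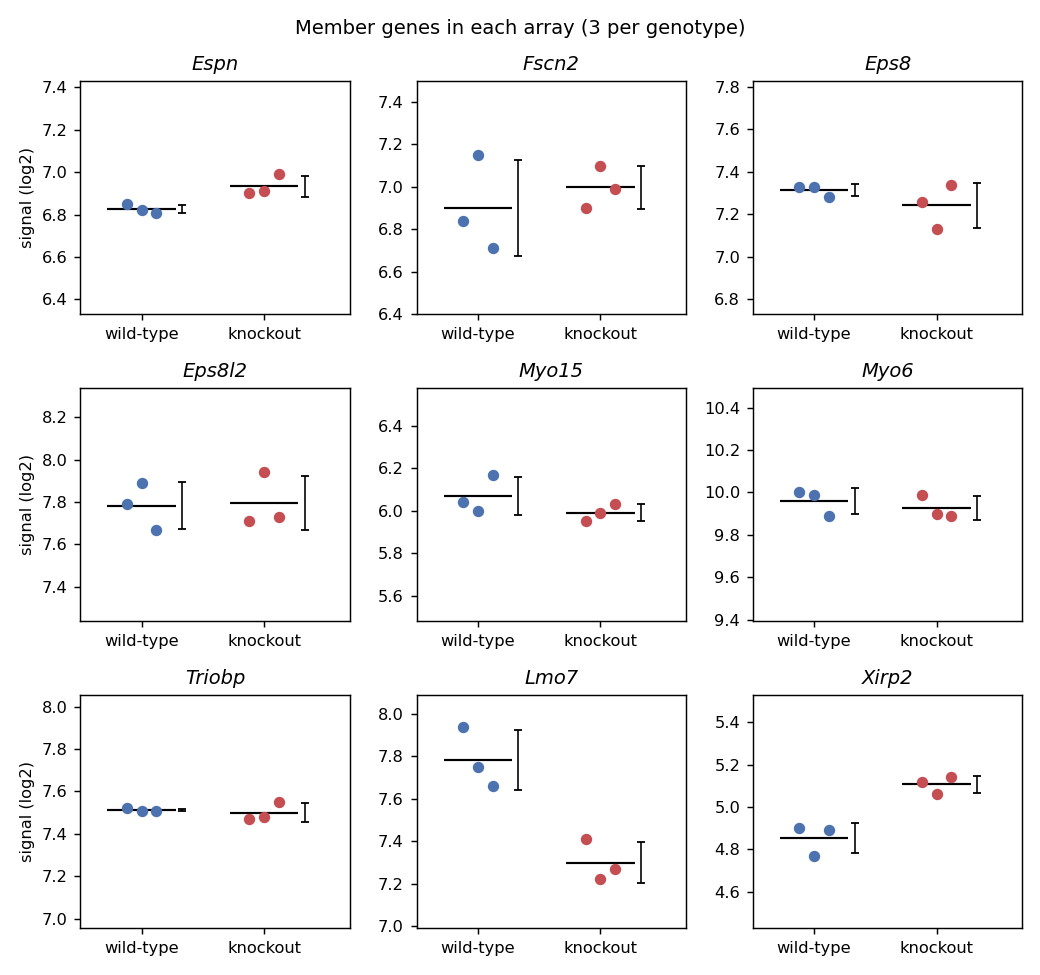
Log2 signal of each measured member in each array, with wild-type in blue and knockout in red. Points are arrays, long bars are group means, error bars are the SD over 3 arrays, and every panel spans the same height on the log2 scale. The groups are apart for Lmo7, Xirp2 and, by little, Espn, and overlap for the other 6 genes.

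The gene sequences shown are those of Lmo7 and Xirp2, the members with the largest difference in each direction, to let their start sites be compared. They are the 250 bases before each start site that RefSeq annotates on GRCm38.p6, from a table that held promoters for 9 of the 10 members, 13 start sites in all. The deposited values name no genome build, so these positions belong to the table and not to the probe sets. Xirp2 has its start site after chr2:67445752-67446001, and Lmo7 has one after chr14:101729678-101729927 and another after chr14:101840373-101840622, all on the plus strand. Capitals mark CG pairs and, in Xirp2, a match to the MEF2 box, the binding motif of the MEF2 transcription factors of muscle and other tissues.

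Xirp2 promoter: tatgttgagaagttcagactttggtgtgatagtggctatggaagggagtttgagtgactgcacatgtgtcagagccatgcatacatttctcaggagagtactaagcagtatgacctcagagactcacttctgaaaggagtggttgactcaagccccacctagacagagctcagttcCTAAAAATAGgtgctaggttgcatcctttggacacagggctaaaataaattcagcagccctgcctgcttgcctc

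Lmo7 promoter, upstream start site: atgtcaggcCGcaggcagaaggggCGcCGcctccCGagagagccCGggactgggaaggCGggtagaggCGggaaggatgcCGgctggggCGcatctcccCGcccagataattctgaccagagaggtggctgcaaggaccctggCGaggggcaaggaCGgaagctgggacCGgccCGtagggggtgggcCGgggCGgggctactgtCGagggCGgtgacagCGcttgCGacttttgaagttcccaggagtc

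Lmo7 promoter, downstream start site: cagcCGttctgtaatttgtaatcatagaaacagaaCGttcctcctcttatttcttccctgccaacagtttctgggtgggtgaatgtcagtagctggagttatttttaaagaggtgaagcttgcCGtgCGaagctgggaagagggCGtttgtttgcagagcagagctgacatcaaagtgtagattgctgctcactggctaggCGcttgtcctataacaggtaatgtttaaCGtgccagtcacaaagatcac

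The Xirp2 sequence held no CG pair, and its MEF2 box, CTAAAAATAG, ended 64 bases before the start site. A MEF2 box on either strand was present in 1.69% of the 32851 promoters in the table, and in 1 of the 13 promoters of the members. The upstream Lmo7 promoter was rich in CG pairs, with 20 of them and 68.8% G or C bases, and the downstream one had 7 CG pairs and 46.0% G or C. The median promoter had 6 CG pairs and 52.4% G or C. Other motifs searched on both strands were TATAAA, found in 1 of the 13 promoters (Fscn2) and 12.4% of all, CANNTG, found in 8 of 13 and 66.2% of all, and the CArG box of serum response factor, found in 0 of 13 and 1.47% of all. CANNTG reads the same on both strands, and its sites were counted once. In Xirp2 CANNTG had 2 matches, which overlap within the stretch cacatgtg, and in both Lmo7 promoters it had 0. These matches describe letters in the windows and no binding was measured.

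Lmo7 encodes a LIM domain protein that binds actin and helps to organise the cuticular plate and cell junctions. Its probe set read 7.41, 7.22 and 7.27 for the knockout samples against 7.94, 7.75 and 7.66 for the wild-type samples (log2 signal). The knockout samples were all low and the wild-type samples all high, and the closest pair was 0.25 apart. The group means were 7.30 ± 0.10 and 7.78 ± 0.14 (SD, n = 3 each), a difference of -0.48 (95% interval -0.68 to -0.29), or 1.40-fold lower (interval 1.22 to 1.60). The difference did not pass in limma over all genes (adjusted p = 0.139), and the exact two-sided permutation test over arrays gave p = 0.1, the smallest that 3 arrays against 3 allow. In size it exceeded the difference of all but 0.22% of the genes. Genes of the same signal decile had a median of -0.03, and relative to that median the Lmo7 difference was -0.46.

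Lmo7 was called under 2 of the alternatives. Limma called it with an intensity trend and robust priors (adjusted p = 0.0179), where 112 genes were called in all, and among the genes at or above the median signal (adjusted p = 0.0375), where 45 were. Over the 16 alternatives its adjusted p ran from 0.0179 to 0.91 and its difference from -0.55 to -0.24. The smallest difference, -0.24 (SE 0.11, adjusted p = 0.91), came with the level of Y-linked genes as a covariate. The mean log2 signal of the 3 Y-linked genes measured lay between 7.39 and 7.58 for the knockout and between 7.65 and 8.05 for the wild-type, without overlap. The parts of this level and of the genotype in the Lmo7 difference therefore cannot be told apart. No other alternative moved the Lmo7 difference past the range from -0.55 to -0.41.

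Lmo7 is expressed in many epithelia and in muscle, so other cell types that could contribute were looked at beside it. Of 12 supporting cell markers 7 were higher in the knockout and 5 lower, with a median of 0.085. Of 27 skeletal muscle markers 20 were higher and 7 lower, with a median of 0.11. Of 6 smooth muscle and pericyte markers 5 were lower in the knockout and 1 was higher, with a median of -0.19, or -0.119 both with the Y-linked covariate and without knockout replicate 3. Their summed linear signal lay between 1738.1 and 2043.9 for the knockout and between 2131.6 and 2188.3 for the wild-type, without overlap. The summed signal of spiral ganglion neuron markers was also lower without overlap, 15291.7 to 15747.6 in the knockout against 15801.5 to 16267.8. So was that of melanocyte markers, 330.5 to 378.5 against 572.2 to 709.4. The sums of hair cell, supporting cell, skeletal muscle and myelin markers overlapped. Acta2, the smooth muscle actin, differed by -0.38 (SE 0.07), Myh11, the smooth muscle myosin, by -0.31 (SE 0.07) and Abcc9, a pericyte channel subunit, by -0.22 (SE 0.07), and none of the 3 passed over all genes (limma adjusted p from 0.146 to 0.292). The part of any of these cell types in the Lmo7 difference was not tested. Along chromosome 14, 18 of the 20 protein-coding genes nearest to Lmo7 in gene order were measured, with 7 higher, 11 lower, a median of -0.03 and a range from -0.17 to 0.22. None of these 18 differed as much as Lmo7 did, which also held for all but 0.22% of all genes. Dct, a melanin synthesis gene that passed in these arrays with a difference of -1.86 (SE 0.17, limma adjusted p = 0.0115), lies 20 protein-coding genes from Lmo7.

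Xirp2 encodes a Xin repeat protein that binds actin filaments in stereocilia and the cuticular plate of hair cells and in the junctions of striated muscle. It read 5.12, 5.06 and 5.14 in the knockout and 4.90, 4.77 and 4.89 in the wild-type (log2 signal). The knockout samples were all high, and the closest pair of samples of different genotype was 0.16 apart. The means were 5.11 ± 0.04 and 4.85 ± 0.07 (SD, n = 3 each), a difference of 0.25 (95% interval 0.12 to 0.39), or 1.19-fold. It did not pass over all genes (limma adjusted p = 0.209), and the exact permutation p was 0.1. The probe set was dim, at percentile 15 of the genes, where genes of the same decile had a median of 0.05. Relative to that median the Xirp2 difference was 0.20. It stayed between 0.21 and 0.28 over the 14 alternatives that included it, with adjusted p-values from 0.212 to 0.91, and it was below both filters on dim genes.

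Xirp2 is also a muscle gene, and 20 of 27 skeletal muscle markers were higher in the knockout, with 7 lower and a median of 0.11. Of all 19938 genes 8955 were higher and 10723 lower. Genes of signal deciles 2 to 5, which hold all of these markers but Neb and Pygm, had medians from 0.013 to 0.07. The median of the markers was 0.20 without knockout replicate 3 and 0.05 without knockout replicate 2. It was -0.44 when genes under the median signal were left out, a filter that only Neb and Pygm of the markers passed. Myh4, a fast muscle myosin, at 0.35 (SE 0.07) and Ryr1, the calcium release channel of muscle, at 0.26 (SE 0.07) were among the higher ones, and Ttn at -0.95 (SE 0.06, limma adjusted p = 0.00206), Neb at -0.47 (SE 0.06) and Pygm at -0.41 (SE 0.06) were the lowest. The summed signal of the 27 markers lay between 2573.3 and 2788.6 for the knockout and between 2708.5 and 2813.4 for the wild-type, with overlap. Without Ttn and Neb, which lie on the chromosome of Pjvk, it lay between 2366.8 and 2572.0 and between 2386.1 and 2484.6. Ttn is close to Pjvk, as it lies 80 and Pjvk 77 protein-coding genes from Xirp2 on the same side. Xirp1, the related Xin repeat gene of striated muscle, differed by -0.11 (SE 0.07, limma adjusted p = 0.544). The part of muscle tissue in the Xirp2 difference was not tested.

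Xirp2 lies on chromosome 2 with Pjvk, 77 protein-coding genes away. All 20 protein-coding genes nearest to it were measured, with 12 higher, 8 lower and a median of 0.03. B3galt1, the next gene, differed by -0.30 (SE 0.07), and Gm1322 on the other side by 0.28 (SE 0.12). These neighbours differed in both directions, 2 of them by more than Xirp2 did, and none was called by limma over all genes. Their part in the Xirp2 difference was not tested.

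**Figure D2:**
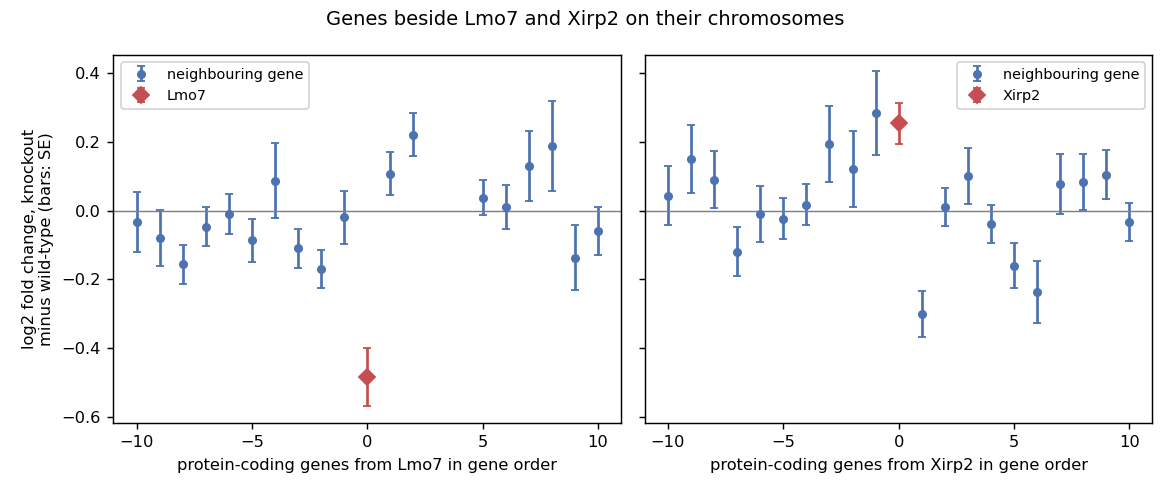
Log2 fold change, knockout minus wild-type, of the measured protein-coding genes up to 10 places from Lmo7 (left) and Xirp2 (right) in gene order, with error bars for the standard error. Lmo7 and Xirp2 are shown because they are the members with the largest difference in each direction. Lmo7 at -0.48 lies outside the span of its neighbours (-0.17 to 0.22), and Xirp2 at 0.25 lies within the span of its own (-0.30 to 0.28).

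The crosslinkers of the actin core were slightly higher in the knockout and did not pass. Espn encodes espin, which bundles the parallel filaments and lengthens stereocilia. It read 6.90, 6.91 and 6.99 in the knockout and 6.85, 6.82 and 6.81 in the wild-type. The groups did not overlap, but the closest pair was 0.05 apart, and the difference of 0.11 (95% interval -0.02 to 0.23) corresponds to 1.08-fold (limma adjusted p = 0.446). Fscn2, which encodes a fascin of stereocilia and photoreceptors, read 6.90, 7.10 and 6.99 in the knockout and 6.84, 7.15 and 6.71 in the wild-type. The wild-type values spanned 0.44 and enclosed all knockout values. The difference was 0.10 (95% interval -0.15 to 0.35, limma adjusted p = 0.733), and with 1 array left out it ran from 0.002 to 0.22.

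The genes for tip proteins and the bundle myosins overlapped between the genotypes. Eps8, which encodes an actin regulator delivered to stereocilia tips by myosin XVA, read 7.26, 7.13 and 7.34 in the knockout and 7.33, 7.33 and 7.28 in the wild-type. The difference was -0.07 (95% interval -0.22 to 0.08, limma adjusted p = 0.675), which was -0.013 without knockout replicate 2 and -0.118 without knockout replicate 3. Eps8l2, its relative that maintains stereocilia in mature hair cells, read 7.71, 7.94 and 7.73 against 7.79, 7.89 and 7.67. The high and low arrays of each genotype were spread alike, and the difference was 0.01 (interval -0.18 to 0.20, adjusted p = 0.97). These intervals are wide enough to allow 1.17-fold lower Eps8 and 1.15-fold higher Eps8l2 in the knockout.

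Myo15, the gene of the motor that carries the tip complex, read 5.95, 5.99 and 6.03 in the knockout and 6.04, 6.00 and 6.17 in the wild-type. The groups overlapped by 0.03, and the difference was -0.08 (95% interval -0.22 to 0.06, limma adjusted p = 0.609). With 1 array left out it ran from -0.03, without wild-type replicate 3, to -0.115, and with the Y-linked covariate it was -0.205. Myo6, the gene of the myosin that moves toward the minus ends of actin and helps to anchor the stereocilia base, read 9.99, 9.90 and 9.89 in the knockout and 10, 9.99 and 9.89 in the wild-type. It is bright, at percentile 95.8, and the difference was -0.03 (interval -0.17 to 0.10, adjusted p = 0.838), with array values that almost coincided. With 1 array left out it ran from -0.068 to -0.013.

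Triobp encodes the protein that packs actin in the rootlet, and its range over the 6 arrays, 0.08, was the narrowest of the measured members. It read 7.47, 7.48 and 7.55 in the knockout and 7.52, 7.51 and 7.51 in the wild-type. The difference was -0.01 (95% interval -0.13 to 0.11, limma adjusted p = 0.934), which allows a shift of no more than 1.10-fold in either direction.

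**Figure D3:**
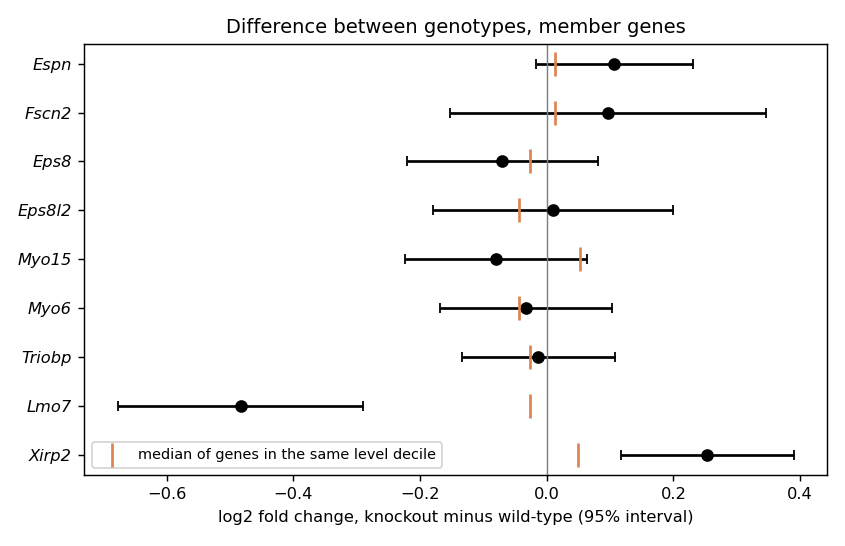
Log2 fold change of each measured member, knockout minus wild-type, with its 95% interval from limma. Orange bars mark the median of all genes in the same signal decile. The interval lies off 0 for Lmo7 and Xirp2 and includes 0 for the other 7 members.

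A wider list of actin genes of the bundle and cuticular plate, with actin itself, plastins, capping proteins, spectrins, tropomyosins and further bundle myosins, had 38 of 41 members measured. Of these, 15 were higher and 23 lower, with a median of -0.017, and none was called. Before adjustment 5 of the 38 met a limma p under 0.05, 2 higher and 3 lower, which is 13.2% of 38 against 12.4% of all genes. The groups did not overlap for 5 members, 13.2%, against 17.8% of all genes. The shares of the list were thus near or below those of all genes.

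On the lower side of that list stood Actn1, the actin crosslinker alpha-actinin 1, at 9.41, 9.56 and 9.30 in the knockout and 9.65, 9.64 and 9.69 in the wild-type, without overlap. Its difference was -0.24 (SE 0.07, limma adjusted p = 0.295). Fscn1, the broadly expressed fascin, differed by -0.20 (SE 0.08), Dstn, an actin-severing factor, by -0.19 (SE 0.08) and Myo1c, a myosin of the adaptation motor, by -0.12 (SE 0.07). On the higher side, Ptprq, a phosphatase of the stereocilia shaft, read 8.42, 7.95 and 8.01 in the knockout and 7.75, 7.77 and 7.70 in the wild-type. One knockout array stood above the rest, and the difference was 0.39 (SE 0.11, limma adjusted p = 0.276). Diaph3, a formin that nucleates actin filaments, differed by 0.13 (SE 0.05), Myo3b by 0.18 (SE 0.10) and Espnl, the espin-like gene, by 0.10 (SE 0.08).

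Markers of hair cells, the cells that carry the bundle, went both ways. Of 16, 9 were higher and 7 lower, with none called and a median of 0.045, which was -0.037 among genes at or above the median signal and -0.001 without knockout replicate 2. Their summed signal lay between 2864.8 and 3156.6 in the knockout and between 2847.0 and 2919.3 in the wild-type, with overlap. Tmc1, a channel subunit of mechanotransduction, differed by 0.22 (SE 0.06) and Ocm, the calcium buffer oncomodulin of outer hair cells, by 0.21 (SE 0.07), while Lhfpl5, another mechanotransduction subunit, differed by -0.20 (SE 0.06).

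**Figure D4:**
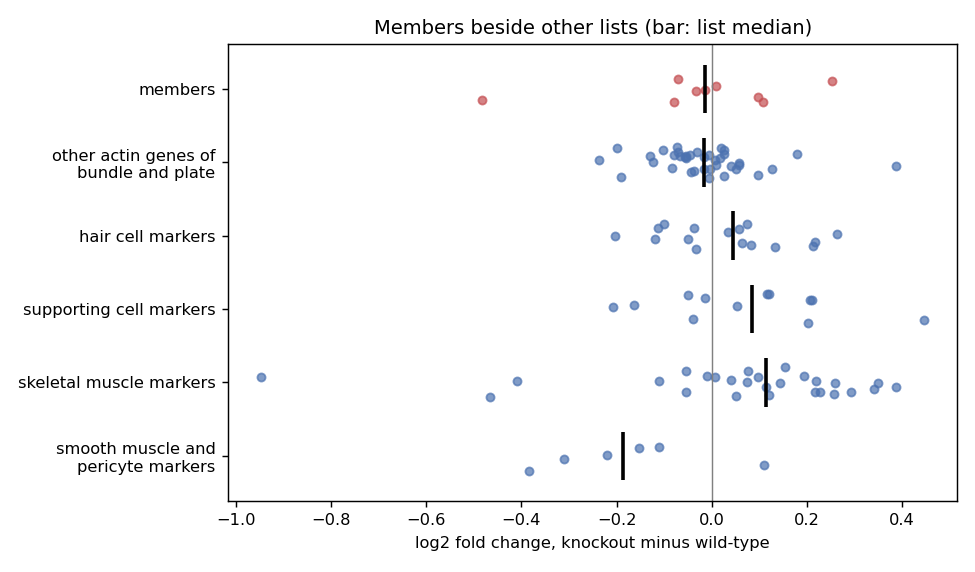
Log2 fold change, knockout minus wild-type, of each gene in the members (red) and 5 other lists (blue), with vertical bars at each list's median. Lmo7 lies lower than every gene of the wider actin list, which runs from -0.24 to 0.39, and lower than every hair cell marker, which run from -0.20 to 0.26. Ttn in the skeletal muscle list lies lower than Lmo7, at -0.95.

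**Figure D5:**
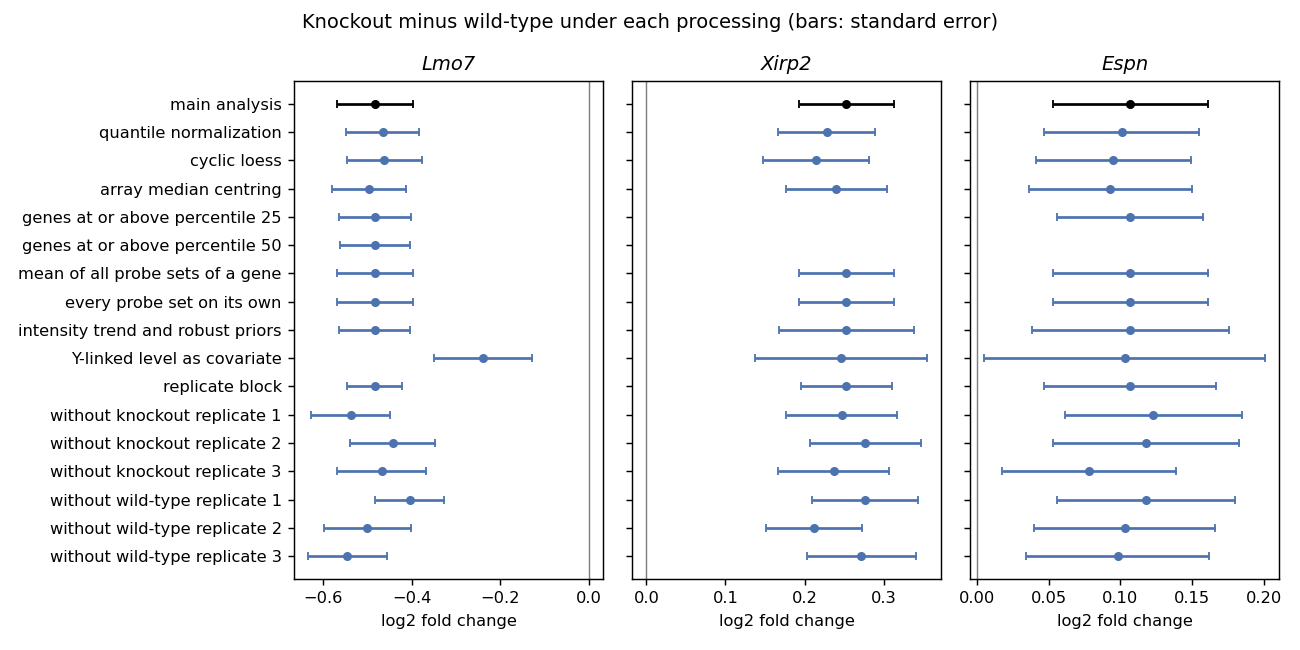
Log2 fold change of Lmo7, Xirp2 and Espn under the main analysis (black) and each alternative (blue), with standard errors. All values keep their sign, and a missing point means that the gene was below the filter. Lmo7 moves to -0.24 with the Y-linked level as covariate.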

How the data were processed

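Organ of Corti total RNA, 3 knockout and 3 wild-type samples, was labelled from 100 ng for an Affymetrix mouse ST array, per the labels' protocols. The authors deposited log2 values, made with the Affymetrix Expression Console per the submitters' processing notes; how probes were summarized and normalized, and on which genome build, is not stated there. The values were used as deposited. Of 35557 probe sets, 21789 had 1 gene symbol in the platform annotation, 1621 had several and 12147 were not named. Identifiers of 21698 matched a mouse gene table (GRCm38.p6). Among probe sets of a gene, that of highest mean was used; each measured member had 1.

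The genotypes were compared by limma 3.58.1 (R 4.3.3, lmFit, eBayes, no covariate), adjusted by Benjamini-Hochberg over 19938 genes and called below 0.05. The labels name no separate animals, so p-values measure only the spread between samples, possibly technical. The number of arrays limits the precision. Members and lists were chosen with earlier results of these data known. All members and Pjvk were named. By smallest p, up to 4 genes in each direction from the wider actin list and up to 3 from each marker list were named. Myh4, Ryr1, Xirp1, Gm1322, B3galt1, Pmel and Tyrp1 were added after their values were seen. The limma step was run on simulated data with independent noise and known changes larger than any member's difference. It therefore does not cover changes of the members' size, nor a Y-linked difference between the groups. Alternatives were quantile, cyclic loess and median normalization, filters at percentiles 25 and 50, mean or separate probe sets, an intensity trend with robust priors, a Y-linked covariate (3 of 4 listed genes measured), a replicate block and leaving out each array.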

Additional observations from a re-analysis of the deposited data

How the results depend on the processing

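No member was called under the main analysis or any alternative except Lmo7, called among genes at or above the median signal (1 member, adjusted p = 0.0375, log2 fold change -0.48) and with an intensity trend and robust priors (1 member, adjusted p = 0.0179). The number of genes called in all was 7, and it was 18 with median centring, 20 and 45 above percentiles 25 and 50, 112 with the trend and 0 with the Y-linked covariate (1087 genes at an unadjusted p under 0.05). With 1 array left out it ran from 2 to 6, and the lowest counts came without wild-type replicate 1 or 2 (2 each) and without knockout replicate 3 (3). The labels do not say that replicate numbers pair arrays, and deviations of same-numbered arrays correlated at 0.076, 0.019 and -0.009. With the replicate block 1 gene was called and no member, and Lmo7 had an adjusted p of 0.182.

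The median of the members was 0.08 with the Y-linked covariate, and that of the wider actin list 0.016 with cyclic loess. The neighbours of Xirp2 had medians of 0.01 and -0.01 above percentiles 25 and 50, where fewer genes were tested, and -0.037 with the covariate, and the neighbours of Lmo7 0.013 with the covariate. The members stood 6 higher and 3 lower with quantile normalization or cyclic loess, against 4 and 5. Signs turned for members near 0. Triobp was 0.004 with quantile normalization, 0.007 with cyclic loess and between -0.038 and 0.002 with 1 array left out. Eps8l2 was -0.003 with median centring and between -0.063 and 0.063 with 1 array left out. Myo6 was 0.011, 0.007 and 0.08 with quantile normalization, cyclic loess and the covariate. The cause of these moves was not tested. Lmo7, Xirp2, Espn, Eps8, Myo15 and Fscn2 kept their signs in every alternative that included them.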

Other observations

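Supporting cell markers, from the cells that surround the hair cells, had 7 of 12 members higher and 5 lower in the knockout, with a median of 0.085 and none called. Tectb, which encodes beta-tectorin of the tectorial membrane, differed by 0.45 (SE 0.07, limma adjusted p = 0.0923) and Otog, which encodes otogelin, by 0.21 (SE 0.07), while Prox1, a homeobox gene of supporting cells, differed by -0.21 (SE 0.06). Markers of spiral ganglion neurons had a median of -0.007 over 6 of 7 genes, with Snap25 at -0.11 (SE 0.05), Prph at 0.13 (SE 0.06) and Nefl at -0.09 (SE 0.06). Myelin markers had a median of 0.02 over 3 of 6 genes, with Mbp at 0.03, Sox10 at 0.02 and Pmp22 at 0.00. Of 5 melanocyte markers 3 were lower and 2 higher, and only Dct was called. Tyr at -0.31 (SE 0.13) and Mlana at -0.10 (SE 0.06) did not pass and overlapped between the genotypes. Pmel at 0.14 (SE 0.10) and Tyrp1 at 0.09 (SE 0.07) were the higher ones and overlapped too.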
